A study of Mus musculus with 8 samples.

Results

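The soleus (SOL) transcriptome of the flox mice, the controls of a study of IRF4 in skeletal muscle, is described here across genes. Its members were the 11384 genes, of 24054 listed, whose value was at least 1 in each of the 4 flox mice. These genes held 99.8% of all values in each mouse. The values are TMM-normalized CPM, counts scaled to library size and then by the trimmed mean of M-values.

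The flox mice were C57BL/6 males that carried the floxed Irf4 alleles without Cre, and the labels record a high fat diet as their food but no age. The study describes its flox mice on chow diet but gives no diet for the mice that were sequenced, so the diet behind these levels is uncertain. The series holds 8 soleus samples in all, and the other group, MI4KO, in which Irf4 was deleted with Myl1-cre, was not used here. Each flox sample was 1 stranded, mRNA-enriched library from 1 mouse, and the mice are numbered 1 to 4 by the rising numbers of their titles. Whole muscle was sequenced, so fewer cells of a type and less RNA per cell cannot be told apart.

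Soleus is a postural muscle of the lower leg with a mixed make-up in the mouse, where slow type I fibres and oxidative fast type IIA fibres lie side by side. Slow fibres contract with beta myosin, which Myh7 encodes, refill their calcium store through the pump encoded by Atp2a2, and draw most of their ATP from mitochondria. Fast fibres use other genes of the same families, Myh2 for type IIA, Myh1 for type IIX and Myh4 for type IIB, and the pump encoded by Atp2a1.

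The reads assigned to each gene could be recovered from the values. Between 13916450 and 16137925 reads were assigned to genes in each mouse, so that 3 reads corresponded to values of 0.187 to 0.225. The chi-square of reads between 2 mice, per degree of freedom, lay between 6.06 and 12.3, so all 4 were counted as separate libraries. Across the member genes, Pearson's r of log2(value + 1) between pairs of mice lay between 0.992 and 0.994, where genes are not independent replicates. Mouse 1 stood apart for liver transcripts, mouse 3 for Myh6, and mouse 2 for long transcripts, and the values are given with the results they touch. No test is made below, since a single group is described. The spread between mice is given as the SD or as the coefficient of variation (CV, the SD over the mean).

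The RNA was concentrated in few genes. The 10 genes with the highest mean value held 17.8%, 18.4%, 19.4% and 19.4% of all values in mice 1 to 4, and the 100 highest held 44.3% ± 0.92 (SD, n = 4). Ordered by mean value, 161 genes added up to 50% of all values and 3478 to 90%, while the median member had a mean of 17.6. Only 122 members, or 1.07%, had a mean of at least 1000, and these held 46.6% of all values.

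A single row of ribosomal RNA led the list. Rn45s, the precursor of the ribosomal RNAs, had values of 48533, 55233, 64787 and 61954 in mice 1 to 4, which was 5.66% ± 0.58 (SD, n = 4) of all values although the libraries were enriched for mRNA. Mouse 1 was the lowest of the 4. The list of structural and non-coding RNA, which Rn45s leads, also holds Lars2, a protein-coding gene for the mitochondrial leucyl-tRNA synthetase, at a mean value of 4114 ± 615 (SD, n = 4). The highest messenger RNA was Acta1, skeletal muscle alpha-actin of the thin filament, at 36037, 32189.7, 39858 and 36525. It alone held 3.55% ± 0.16 (SD, n = 4) of all values.

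The next places by value went to long or abundant messages of the sarcomere and of calcium and energy supply. Myh2 had a mean value of 15594 ± 1580.1, Tpm2, a tropomyosin of the thin filament, 13394 ± 965, and Mb, the oxygen store myoglobin, 13033 ± 439 (SD, n = 4). They were followed by Myh7 at 13005 ± 1529.8, Atp2a1 at 12122 ± 566, Ckm, the muscle creatine kinase, at 10802 ± 490.1, Ttn, the giant spring of the sarcomere, at 10027 ± 1277 and Tnnt3, fast troponin T, at 9006 ± 298 (SD, n = 4 for each). Rn45s, Acta1 and these 8 genes are the 10 counted above. Places 11 to 20 were taken by Atp2a2, Tpm1, Neb, Aldoa, Mybpc1, Des, Myl3, Gapdh, Slc25a4 and Nrap, whose means lay between 7747 and 5485. Atp2a2 stood at 7968, 6951, 8169 and 7899 in mice 1 to 4. Neb, the ruler of the thin filament, stood at 6667, 4978, 6338 and 6233, with mouse 2 below the others.

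A value grows with the length of a message, so levels of different genes were compared per kb of exon, using all exons of a gene merged. On this scale Acta1 was first at 23537 ± 2044 and Mb second at 8735 ± 294 (SD, n = 4). They were followed by Tnnc2, fast troponin C, at 6079 ± 283, Fabp3, the fatty acid carrier of heart and oxidative muscle, at 5761 ± 301, and Tnnt3 at 5689 ± 188 (SD, n = 4). Tpm2, Tcap (a titin cap protein of the Z-disc), Ckm, Atp2a1 and Tnni2 completed the first 10, and the ribosomal row and Aldoa had no matched length. Ttn fell from place 9 by value to place 486 per kb, at 85.8 ± 10.9 per kb (SD, n = 4), and 9 genes were in both lists of 20.

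The start sites of Acta1, the highest messenger RNA, and of the fast myosin heavy chain genes, whose levels between mice are taken up below, are shown from RefSeq on GRCm38.p6. Each line gives the 150 bases before the listed start, 5′ to 3′ on the gene's own strand, and capitals mark the letters TATAAA, the form of a TATA box, and CAGCTG, the form of an E-box bound by myogenic factors.
Acta1, chr8:123894776-123894925, minus strand: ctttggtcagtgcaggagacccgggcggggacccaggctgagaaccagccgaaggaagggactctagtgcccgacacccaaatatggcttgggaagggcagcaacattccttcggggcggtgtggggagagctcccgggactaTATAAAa
Myh2, chr11:67170877-67171026, plus strand: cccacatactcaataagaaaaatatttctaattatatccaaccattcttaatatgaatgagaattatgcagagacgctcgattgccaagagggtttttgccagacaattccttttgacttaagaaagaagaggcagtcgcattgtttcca
Myh1, chr11:67199952-67200101, plus strand: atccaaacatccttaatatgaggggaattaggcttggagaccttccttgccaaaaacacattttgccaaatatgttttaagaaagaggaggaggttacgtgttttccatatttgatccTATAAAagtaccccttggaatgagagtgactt
Myh4, chr11:67237662-67237811, plus strand: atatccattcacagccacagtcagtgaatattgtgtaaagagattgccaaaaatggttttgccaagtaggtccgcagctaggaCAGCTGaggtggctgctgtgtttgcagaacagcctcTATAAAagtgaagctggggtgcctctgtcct
Of these 4 windows, Myh4 held both motifs, with TATAAA starting 31 bases and CAGCTG 67 bases before the listed start. Myh1 held TATAAA 32 bases and Acta1 7 bases before the listed start, and Myh2 held neither motif. In GENCODE M21 the starts of Acta1 (123894751), Myh1 (67200052) and Myh4 (67238029) differ from those of RefSeq, so these distances hold for the RefSeq starts only.

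Both motifs were searched on both strands in the same window of every gene with a single listed start. CAGCTG was in 8.22% of all 22862 such genes and in 7.45% of the 6829 members among them. Among the 100 members with the highest mean value, 59 had a single listed start, and 15 of these, or 25.4%, held CAGCTG. The letters TATAAA were in 8.53% of all genes, in 3.46% of members and in 8.47% of the 59 highest. A match is a run of letters, not a bound site.

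The 5 genes chosen as slow-fibre markers were all high in every mouse, but their fast partners were mostly higher. Myh7 had values of 12363, 11178, 14577 and 13899.9, Tnni1, slow troponin I, 1820, 1879, 2356 and 2151, and Tnnt1, slow troponin T, 3810.4, 3875, 4573 and 3996 in mice 1 to 4. Myl2, the slow regulatory light chain, had 4034, 3649, 4124 and 4058. Mouse 3 was the highest of the 4 for each of these genes and for Atp2a2. The values of all genes also summed highest in mouse 3, at 1.0734e+06 against 965358 to 1.02002e+06 in the others. As a share of the heavy chain genes, taken up below, Myh7 was highest in mouse 4. Slow and fast partners were then compared per kb of exon, as the slow gene's share of the pair, and in 7 of 9 pairs the slow gene was below its fast partner in every mouse. The label of a slow muscle is therefore not used here, and the samples are called flox soleus.

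The widest gap was in the troponins of the thin filament, which switch contraction on when calcium binds. Tnni1 made up 14.9%, 14.7%, 17.3% and 16.9% of the Tnni1 and Tnni2 pair in mice 1 to 4, Tnnt1 24.4% ± 1.1 of the pair with Tnnt3, and Tnnc1 24.5% ± 1.3 of the pair with Tnnc2 (SD, n = 4). The calcium pump and calcium store were alike in this: Atp2a2 made up 26.7% ± 0.93 of the pair with Atp2a1 and Casq2, a calsequestrin, 26.2% ± 1.7 of the pair with Casq1. Tpm3 made up 36.9% ± 1.4 of the pair with Tpm1, a pair that other cells of the tissue also express. The essential light chain and a Z-disc gene went the other way. Myl3 made up 64.5%, 59.4%, 64.2% and 64.2% of the pair with Myl1, and Myoz2, slow calsarcin, 65.1%, 59.8%, 65.1% and 66.8% of the pair with Myoz1, with mouse 2 the lowest for both. For Myl2 and Mylpf, the regulatory light chains, the order depended on the length used, since Myl2 was at 47.0% ± 2.3 with merged exons and at 58.4% ± 2.3 with the longest transcript (SD, n = 4).

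**Figure D1:**
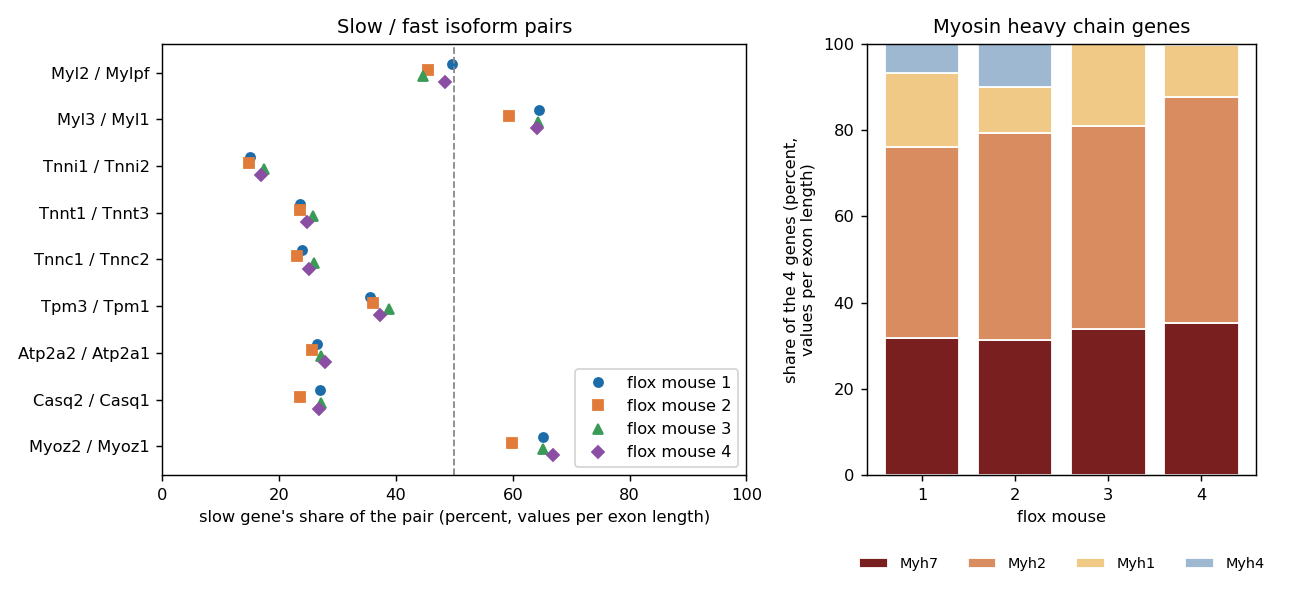
Left, the slow gene's share of each slow and fast pair (percent, values per exon length) in each flox mouse, with a dashed line at equal levels. Right, the shares of 4 myosin heavy chain genes by mouse, where the blue part, Myh4, is 6.66% and 9.998% in mice 1 and 2 and too thin to see in mice 3 and 4.

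Of 4 adult myosin heavy chain genes, the type IIA gene was the highest in every mouse. Per kb of exon, Myh2 made up 44.2%, 48.0%, 47.1% and 52.5% of the 4 genes in mice 1 to 4, and Myh7 made up 31.8%, 31.3%, 33.8% and 35.3%. The ranges of Myh2 and Myh7 did not overlap. Myh1, the type IIX gene, made up 17.3%, 10.7%, 19.01% and 12.1%. Myh4, the type IIB gene, made up 6.66% and 9.998% in mice 1 and 2 but 0.115% and 0.129% in mice 3 and 4. These genes are alike in sequence and reads of 50 bases can fall on more than 1 of them, so the split among them rests on how RSEM divided the reads.

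Sarcomere genes took the largest part of the values, with energy metabolism behind them. The 3 sarcomere lists together held 21.4%, 20.4%, 22.1% and 21.5% of all values in mice 1 to 4. Genes of no single fibre type, led by Acta1, Tpm2, Ttn and Neb, held 12.7% ± 0.69, fast isoforms 5.13% ± 0.16 and slow isoforms 3.503% ± 0.16 (SD, n = 4). Mouse 2 had the lowest share of the first of these, at 11.7% against 12.96% to 13.3% in the others, and also the lowest Ttn and Neb. Genes of calcium handling and excitation, led by Atp2a1, Atp2a2 and Ryr1, the calcium release channel, held 3.80% ± 0.12 (SD, n = 4).

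The 4 lists of mitochondrial energy genes summed to 10.1%, 10.8%, 10.3% and 10.3% of all values. Nuclear genes of the respiratory chain and ATP synthase held 4.56% ± 0.19, genes of fatty acid use 2.69% ± 0.079, pyruvate and TCA cycle genes 2.24% ± 0.018, and mitochondrial carriers 0.893% ± 0.024 (SD, n = 4). Atp5b and Atp5a1, the beta and alpha subunits of the ATP synthase head, led the first list with mean values of 4686 ± 149 and 4039 ± 138, Fabp3 and Lpl, a lipoprotein lipase, led the second, and Idh2, the mitochondrial isocitrate dehydrogenase, was among the highest of the third. Glycolysis and glycogen genes, led by Aldoa and Gapdh, held 3.08% ± 0.12, of which Pygm, the muscle glycogen phosphorylase, had a mean value of 2326 ± 95.0 (SD, n = 4). The oxygen store and energy buffer, mostly Mb, Ckm, Car3 and Ckmt2, held 3.16% ± 0.073 with only 9 genes. No row of the mitochondrial genome matched its list, so these shares hold nuclear genes alone.

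Genes of protein making and protein care had smaller shares. Cytosolic ribosomal proteins held 2.11% ± 0.082, chaperones 2.12% ± 0.095, translation factors 1.58% ± 0.030, and the proteasome and ubiquitin genes 0.791% ± 0.011 (SD, n = 4). The chaperones were led by the small heat shock genes Hspb7, Hspb6 and Cryab, at mean values of 3748 ± 492, 3367 ± 421 and 3256 ± 293, which protect the cytoskeleton of striated muscle. Among translation factors Eef1a2, the elongation factor form of muscle and neurons, and Eef2 had almost equal mean values, 2499 ± 218 and 2499 ± 123.2 (SD, n = 4). Antioxidant enzymes, led by Cat, the catalase, held 0.313% ± 0.011.

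Shares change when each value is divided by its gene's exon length, since long messages then weigh less. On that scale the respiratory chain list rose to 8.42% ± 0.27, the ribosomal proteins to 4.25% ± 0.12 and the fast sarcomere isoforms to 7.25% ± 0.23, while calcium handling went to 2.91% ± 0.081 (SD, n = 4). The slow isoforms went from 3.503% to 3.68% ± 0.15 (SD, n = 4). The total on that scale leaves out rows with no matched length, among them Rn45s, which held 5.66% of all values. Part of each change can come from this smaller total, and its part in the small change of the slow isoforms was not tested.

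**Figure D2:**
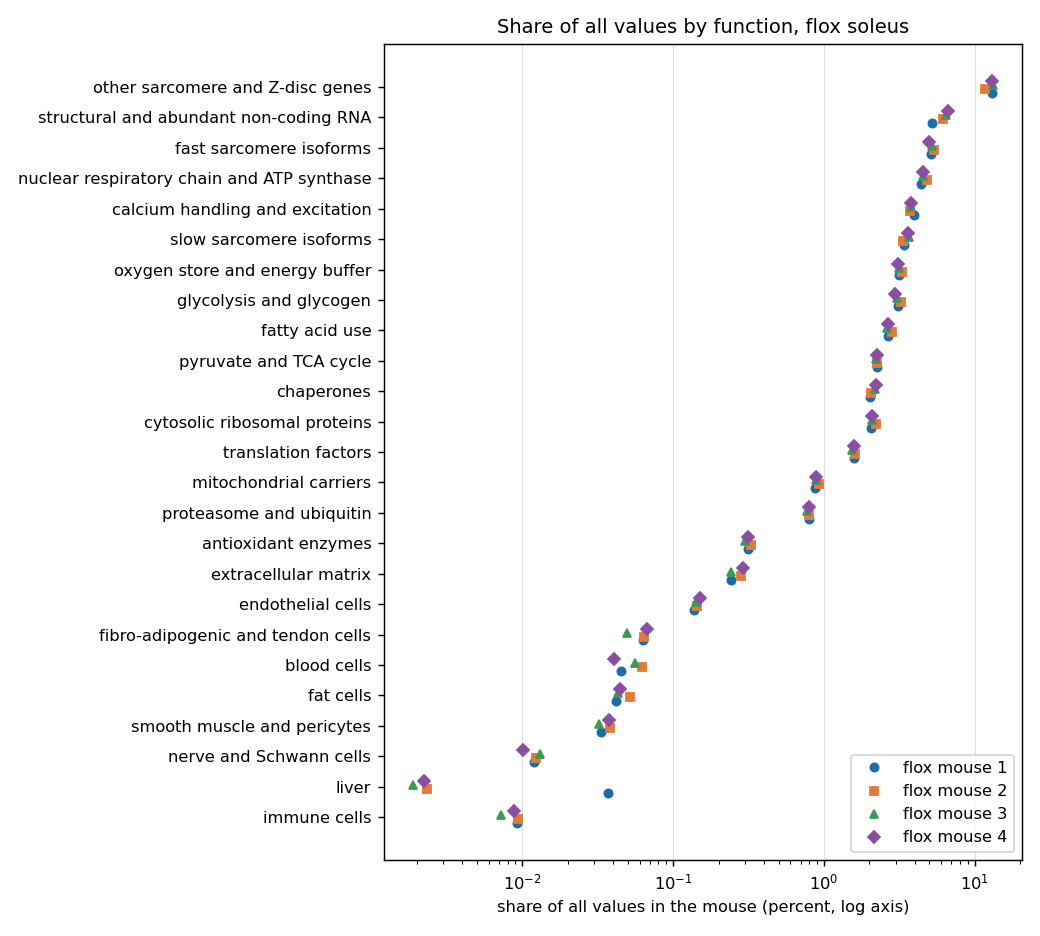
Share of all values held by each functional list in each flox mouse (percent, log axis), with 1 symbol per mouse. The 4 mice lie close together for nearly every list, and the liver list is the exception, at 0.0370% in mouse 1 against 0.00189% to 0.00232% in the others.

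Marker lists of cells other than muscle fibres held small shares. These lists have only 9 to 23 rows each, so a share is not all the RNA of those cells. The lists for endothelial cells, smooth muscle, fat, blood, immune, nerve and tendon cells summed to 0.341%, 0.381%, 0.342% and 0.359% of all values in mice 1 to 4. Endothelial markers were the highest of these at 0.143% ± 0.0055 (SD, n = 4), all 23 of them were members, and Aqp1, a water channel, and Cdh5, vascular cadherin, led them at mean values of 409.9 ± 35.6 and 130.3 ± 11.9. Fibro-adipogenic and tendon markers held 0.0609% ± 0.0079, blood markers 0.0508% ± 0.0099, fat cell markers 0.0453% ± 0.0042, smooth muscle and pericyte markers 0.0352% ± 0.0030, nerve and Schwann cell markers 0.0119% ± 0.0012 and immune markers 0.00868% ± 0.00096. In the fibro-adipogenic and tendon list, Gsn alone had values of 490.5, 467.7, 393.2 and 536.6 in mice 1 to 4. The whole list summed to 632, 620, 529 and 685, so its share was mostly that of 1 gene. The fat cell list was led by Fabp4 and Scd1 and summed to 422, 497, 466 and 454. Of this, Scd1 alone had 167, 179, 165 and 177. Extracellular matrix genes, led by Sparc, held 0.264% ± 0.026 (SD, n = 4).

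Liver markers set 1 library apart. Of 52 listed rows, 46 were highest in mouse 1, and Alb, serum albumin, had values of 59.8, 0.416, 0 and 0.146 in mice 1 to 4. Apoa1, Ttr, Fga and Fgb had between 126 and 188 reads in mouse 1 and 0 in each other mouse. The summed value of all 52 rows was 372 in mouse 1 and 20.3 to 22.7 in the others. Only 4 of the 52 reached the detection limit in every mouse.

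Genes in none of the 26 lists still held 44.5% ± 0.83 (SD, n = 4) of all values, spread over 10590 members. The highest by value were Pde4dip, the scaffold protein myomegalin, at 4241 ± 480, Adck3, which serves the synthesis of coenzyme Q, at 3377 ± 228, Cmya5, a muscle scaffold of the costamere, at 2962 ± 376, and Ndrg2 at 2650.1 ± 111 (SD, n = 4). H19, an imprinted non-coding RNA, had values of 1899, 1680.4, 1804 and 1593. Pink1, a kinase of mitochondrial quality control, had 1751, 1553, 1682 and 1538. These genes were ordered by value alone, after the lists had been counted.

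Most genes differed little between the 4 mice. The median CV of members was 9.01%, of which counting error, the spread expected from the number of reads alone, accounts for a median of 6.31%. After counting error was subtracted from the variance, the median CV was 5.70%, and 8424 members, or 74.0%, were at 10% or less. For 2888 members, or 25.4%, the observed spread was no larger than counting error. The median CV less counting error was 6.96% for members with a mean under 10, 5.55% from 10 to 100, 5.23% from 100 to 1000 and 6.27% above, so it differed little with level.

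**Figure D3:**
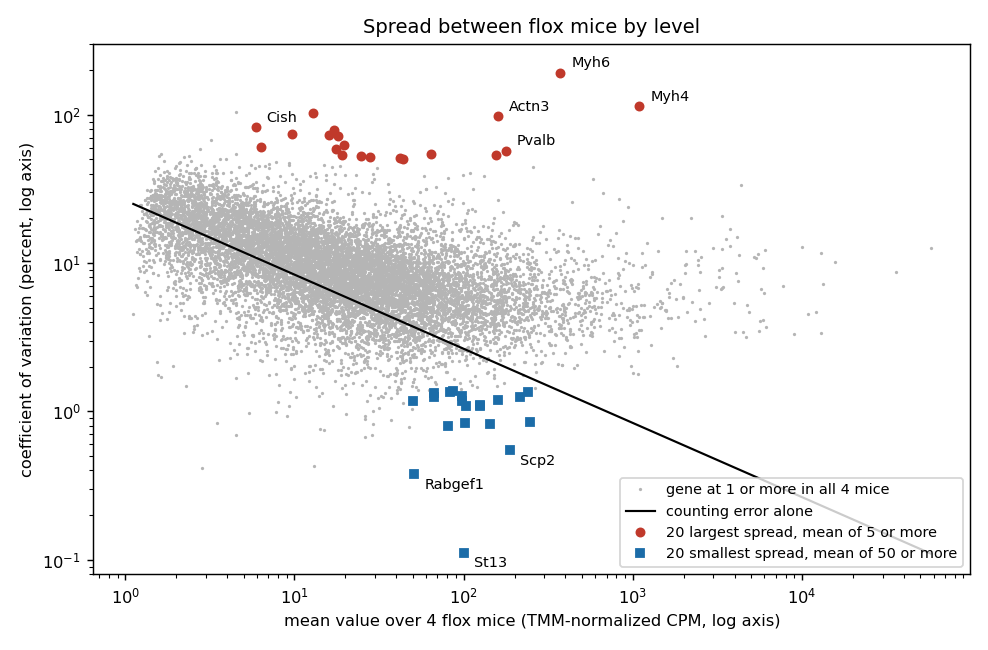
Coefficient of variation over the 4 flox mice (percent, log axis) against the mean value (TMM-normalized CPM, log axis) for the 11384 members, with the counting error as a line. The 20 genes of largest spread lie between Ppargc1a at 50.5% and Myh6 at 192%, and the 20 of smallest spread lie below the line.

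At a CV of 50% or more after subtraction there were 26 genes, or 0.228% of members, 20 of them with a mean of at least 5. Casr, at 50.01%, was the last inside this limit and Sybu, at 49.0%, the first outside. At 30% there were 188 genes. Myh6, Myh4, Actn3 and Pvalb were the muscle genes among the 20, and the rest included plasma protein genes, early response genes, globin and several loci that may have close copies.

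The genes of fast glycolytic fibres divided the mice. Myh4 had values of 1807 and 2496 in mice 1 and 2 and of 34.5 and 35.4 in mice 3 and 4, a CV less counting error of 115%. Actn3, the alpha-actinin of fast fibre Z-discs, had 248.7, 334, 32.9 and 23.8 (97.4%), and Pvalb, parvalbumin, the calcium buffer of fast fibres, had 261, 267, 124 and 60.9 (57.3%). For all 3 genes both mice 1 and 2 were above both mice 3 and 4. Mybpc2, fast myosin-binding protein C, singled out after its values were seen, had 326, 369, 211 and 117 (44.6%) in the same order of mice. Myh1, by contrast, was highest in mice 3 and 1, at 6042 and 4964, and lower in mice 4 and 2, at 3511 and 2824 (33.3%). The median of the 12 fast isoforms was 8.43%, with Myh2 at 10.1% and Mylpf at 9.76%, and Tnnt3 at 3.29% and Tnni2 at 3.41% were the narrowest.

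Myh6, alpha myosin of the heart, had values of 15.2, 13.6, 1451 and 14.5, so mouse 3 stood at 19344 reads against 196 to 244 in the others. Of 6 other genes of heart muscle looked at, 4 were at or near 0 in all mice. Myl7 and Nppb had no read in any mouse, Nppa had 1 or 2 reads per mouse and Tnni3 had 8, 1, 2 and 0. Myl4, the atrial essential light chain, had values of 10.04, 10.9, 10.7 and 12.5 and Sln, the calcium pump inhibitor sarcolipin, 52.1, 49.2, 62.5 and 71.4, and neither was highest in mouse 3. Myh6 lies on chromosome 14 of GRCm38 from 54941921 to 54966927 and Myh7 from 54970684 to 54994626, both on the minus strand in GENCODE M21, with 3756 bases between them. Myh7, whose sequence is close to that of Myh6, had its highest value, 14577, in the same mouse, as did Tnni1, Tnnt1, Myl2 and Atp2a2. The values of all genes also summed highest in that mouse.

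**Figure D4:**
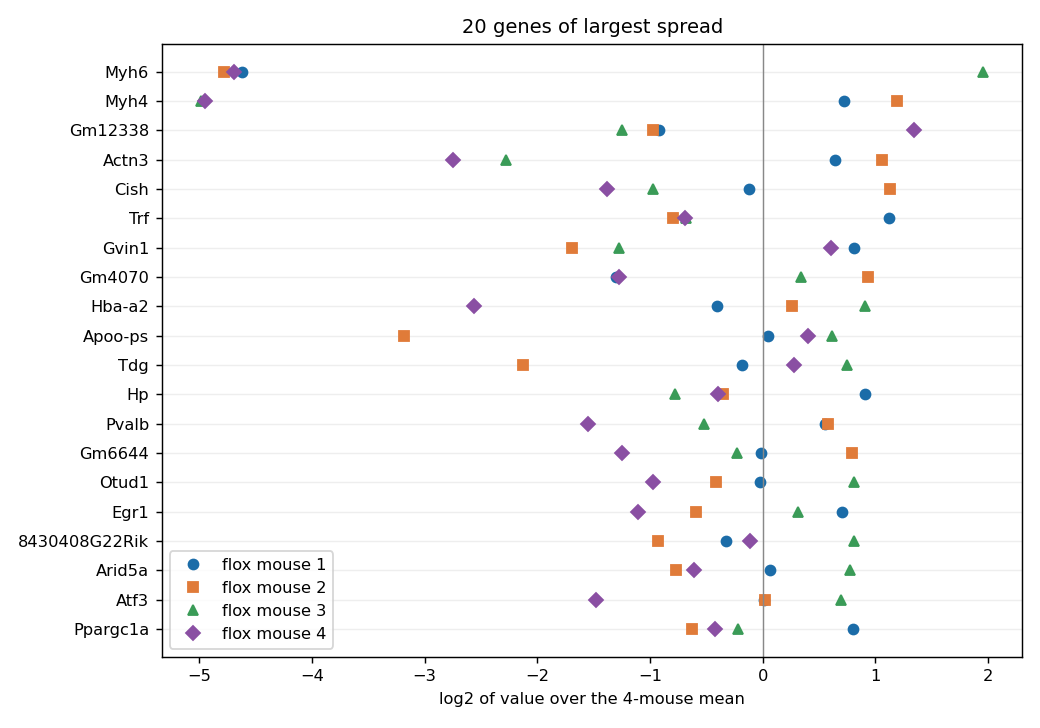
Log2 of each mouse's value over the 4-mouse mean for the 20 genes of largest spread, in falling order from the top, with 1 symbol per mouse. Mouse 3 lies alone on the right for Myh6, and mice 3 and 4 lie to the left for Myh4 and Actn3.

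Several plasma protein and liver genes were high in mouse 1, the mouse with the liver markers. Trf, transferrin, had values of 37.4, 9.85, 10.7 and 10.6, Hp, haptoglobin, 32.8, 13.7, 10.2 and 13.3, Cyp2e1, a cytochrome of the liver, 11.5, 2.43, 1.80 and 2.26, and Rbp4 5.17, 2.08, 1.58 and 2.26. In each of these genes mouse 1 was at least 2 times the next mouse. F2, the remaining member of the liver list, did not share this, at 4.68, 2.22, 4.65 and 3.21 in mice 1 to 4. Without mouse 1, Trf, Hp, Cyp2e1, Rbp4, Ppargc1a, Moap1 and Casr were no longer among the genes at 50% or more, 28 genes passed in all and 19 of the 26 were kept. Ppargc1a, a coactivator that drives mitochondrial genes, was also highest in mouse 1, at 76.7 against 28.5, 37.7 and 32.9, a CV less counting error of 50.3%. The part of the liver transcripts in the value of Ppargc1a was not tested.

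The 4 early response genes of largest spread were all lowest in mouse 4, without a common order of the other mice. Egr1 had values of 31.0, 12.6, 23.6 and 8.82 in mice 1 to 4, and Atf3, a stress-induced factor, 42.2, 42.6, 67.8 and 15.01. Fos had 29.1, 31.6, 20.9 and 11.3, a CV less counting error of 39.04%. Myc had 3.80, 3.12, 5.18 and 1.68 (39.8%). Dusp1 and Junb, which had the smallest CVs of the list, were lowest in mice 1 and 3. Cish, a feedback inhibitor of STAT5 signalling, was highest in mouse 2, at 12.9 against 5.42, 3.001 and 2.26. Otud1, a deubiquitinase, and Arid5a, a protein that binds RNA, were highest in mouse 3, at 272 and 48.1, against ranges of 79.1 to 153 and 16.4 to 29.4 in the others. The inducible heat shock gene Hspa1a, singled out after its values were seen, was at 176 in mouse 3 and at 83.8 to 94.1 in the others.

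Several of the 20 genes may have close copies, and how reads were divided among copies was not tested. Hba-a2, an alpha globin, had values of 13.7, 21.7, 34.1 and 3.06, while its neighbour Hba-a1 had 227, 295, 283 and 220.3. The beta globins Hbb-b2 and Hbb-bt, which are not among the 20, held the same value as each other in each mouse, 11.7, 18.5, 19.96 and 12.3. Apoo-ps, a pseudogene, was at 2.15 in mouse 2 and at 20.2 to 29.9 in the others, and Tdg, a DNA repair glycosylase, was at 1.46 in mouse 2 and at 5.61 to 10.7 in the others. Gm12338, Gm4070, Gm6644 and Gvin1, an interferon-inducible GTPase gene of a family of near-identical copies, differed by between 4.11 and 6.04 times from the lowest to the highest mouse.

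At the other end, 20 genes with a mean of at least 50 varied less than their own counting error. St13, a cochaperone of Hsp70, had values of 99.8, 99.9, 99.8 and 100.04 in mice 1 to 4, a CV of 0.112% where reads alone would give 2.65%. Rabgef1, a regulator of Rab5, followed at 0.377% and Scp2, a lipid carrier of peroxisomes, at 0.548%. All 20 were below counting error, of the 2673 members at a mean of at least 50, so their order among themselves is within counting error. Mff, a receptor on the outer mitochondrial membrane, was at 0.7998% and Prdx3, a mitochondrial peroxidase, at 1.25%. Slc25a34, a mitochondrial carrier, Tmem38b, a cation channel of the sarcoplasmic reticulum, Kcnj2, an inward rectifier potassium channel, and Sspn, a member of the dystrophin complex, were also among them.

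Lists differed in their typical spread. The median CV less counting error was 3.84% for 36 mitochondrial carriers, 4.05% for 84 ribosomal proteins, 4.22% for 31 pyruvate and TCA cycle genes and 4.85% for 84 respiratory chain genes, against 5.70% over all members. The widest were the 4 liver markers at 57.6% and 6 blood cell markers at 22.3%. They were followed by 22 immediate early genes at 16.4%, 23 interferon response genes at 16.1%, 24 glucocorticoid and fasting response genes at 14.1%, 15 immune cell markers at 13.9%, 7 structural and non-coding RNA rows at 12.4%, 7 fibro-adipogenic and tendon markers at 11.5%, 55 matrix genes at 11.3% and 54 sarcomere genes of no single fibre type at 10.9%. Clock genes were at 9.68% and myogenic regulators at 8.42%. The interferon list is also low in level, with a median mean value of 5.27. Of the 6 blood cell markers, Hbb-b2 and Hbb-bt held the same values, so their 26.1% counts 2 times in that median.

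Single genes within these lists show the range. Among clock genes Nfil3, a repressor of clock output, had values of 39.6, 21.2, 38.7 and 19.3 and Nr1d1, a nuclear receptor of the clock, 81.7, 120.2, 89.4 and 129, so that mice 1 and 3 were high for the first and mice 2 and 4 for the second. Clock itself had 24.7, 28.3, 25.6 and 24.99. Among fasting response genes Ddit4 had 15.03, 8.81, 21.4 and 24.4, while Pdk4, which slows pyruvate oxidation, had 1778, 1603, 1682 and 1672 (4.22%). Among interferon response genes Gbp4 was highest in mouse 2, at 6.80 against 3.23 to 3.49, and Irf9 had 6.36, 6.80, 5.55 and 5.83. Myod1, a myogenic factor of fast fibres, had 4.99, 5.13, 3.001 and 3.06, with both mice 1 and 2 above both mice 3 and 4.

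Genes in common use as qPCR references had a median of 5.32%, near that of all members. Rplp0 was at 3.96%, Gapdh at 4.05% and Tbp, which the study used as its qPCR control, at 4.43%, with values of 4.99, 4.09, 5.55 and 4.59. These are CVs less counting error. That error was 0.813% for Rplp0 and 0.351% for Gapdh, but had a median of 12.3% over members with a mean under 10, such as Tbp. What remains for Tbp is therefore imprecise and does not place it beside Rplp0 and Gapdh. B2m at 12.04%, Polr2a at 11.7% and Tfrc at 11.5% were the widest of the 19 after counting error was subtracted. Polr2a was lowest in mouse 2, at 50.9 against 64.4 to 67.7.

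The level moved with transcript length in mice 1 and 2. In mouse 2 the median log2 of the value over the 4-mouse mean went from 0.016 for genes whose longest transcript is under 1 kb to -0.11 between 8 and 16 kb and -0.14 above 16 kb. In mouse 1 it went from -0.070 to 0.058 and 0.052 over the same classes. Mice 3 and 4 kept to 0.032 to 0.061 and -0.011 to 0.032 over all 6 classes. The median CV less counting error was 5.04% for transcripts of 1 to 2 kb, 7.39% for 8 to 16 kb and 9.74% for the 27 genes above 16 kb. Ttn had values of 10583, 8119.96, 10835 and 10571, with mouse 2 the lowest, and the part of transcript length in the spread of single genes was not tested.

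**Figure D5:**
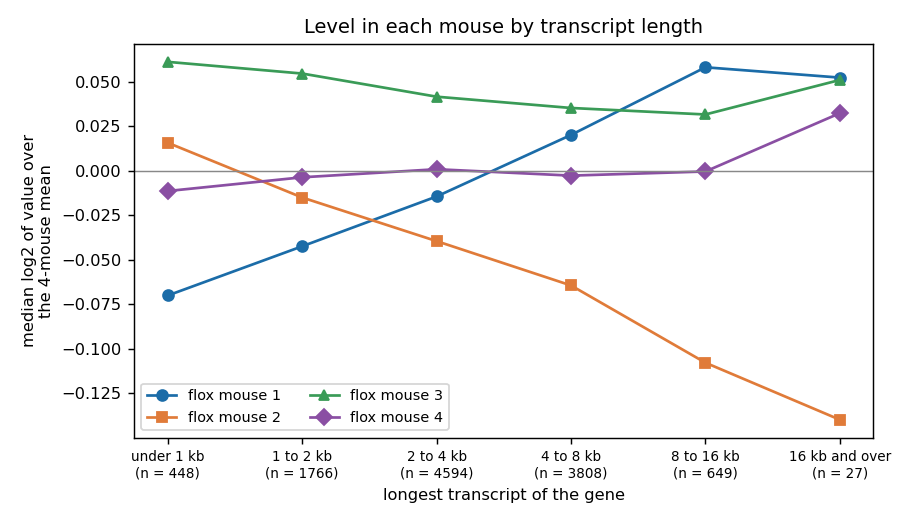
Median log2 of the value over the 4-mouse mean in each flox mouse, for members grouped by the length of their longest transcript in GENCODE M21 (number of genes under each class). The median of mouse 2 goes from 0.016 to -0.14 and that of mouse 1 from -0.070 to 0.052, from the shortest to the longest class.

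Promoter letters were also counted in the genes of largest and smallest spread. Of the 100 members of largest spread with a mean of at least 5, 52 had a single listed start, and 6 of these, or 11.5%, held TATAAA, against 3.45% of all members at that mean. Of the 100 of smallest spread with a mean of at least 50, 56 had a single start and none held TATAAA, against 4.15% of members at that mean. With 6 and 0 genes these shares are a description only.

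Irf4, the gene the study deleted in its other group, was not a member. Its position on GRCm38 is chr13:30749226-30766976 (plus strand), and it had values of 0.686, 1.46, 1.58 and 1.68 in mice 1 to 4, or 11, 21, 21 and 23 reads. Mouse 1 was below the detection limit of 1, and 3 reads there correspond to 0.187.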

How the data were processed

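The authors sequenced single reads of 50 bases from stranded mRNA libraries of soleus. Per the submitters' processing notes, bcl2fastq 2.17, Bowtie2 2.1.0 and RSEM 1.2.15 were used with mm10. The deposited table holds a signal per gene, TMM-normalized CPM, and further columns with the authors' fold changes, p-values and FDR, which were not used. Whole reads were recovered from the deposited values, which were whole multiples of 1 read in 100% of cases at a tolerance of 0.1 reads. These are reads as RSEM assigned them, so counting error leaves out how reads were divided among similar genes. The only model was the variance of 4 mice less that of counting, checked on simulated counts. Intervals and limits from reads cover counting error only, and nothing states more than 1 library per mouse. Lengths came from GENCODE M21, with none for 92 members, and start sites from RefSeq GRCm38.p6. Python 3.11.15, numpy 2.4.6, pandas 2.3.3 and matplotlib 3.10.9 were used. A total of 27 symbols had turned into dates, of which 2 occur in pairs, and were kept as listed. Some genes are not reported here. Members, lists and alternatives were chosen with earlier results of these data known. The genes named were the 20 highest by value and by value per kb, the 20 of largest spread at a mean of at least 5, the 20 of smallest spread at a mean of at least 50, the slow markers and pairs, the 4 highest of each list, the 4 of largest and 2 of smallest spread in lists kept for spread, and Irf4. Genes outside that rule were named after their values were seen.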

Additional observations from a re-analysis of the deposited data

Results flagged for a closer look

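Each value here lay far from the other 3 mice by Dixon's ratio of gap to range. It was looked at in 111 sets of 4 values and 12 stood out, where chance gives about 1 in 20. The genes among them had partly been named for their large or small spread, so the count is a description.

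In mouse 1 the liver markers held 0.0370% of values against 0.00189% to 0.00232% in the others, Trf was 37.4 against 9.85 to 10.7, Hp 32.8 against 10.2 to 13.7, and Fabp3 4373 against 4839 to 4913. In mouse 2 the slow share of Myl3 was 59.4% against 64.2% to 64.5% and that of Casq2 23.6% against 26.8% to 27.2%. Ttn was 8119.96 in mouse 2 against 10571 to 10835 in the others. Scp2, Mff and Sspn had been named for their small spread, and their CVs of 0.548%, 0.7998% and 1.1998% were below the counting errors of 1.93%, 2.94% and 2.09%, so their gaps are within counting error. They were lowest in mouse 2, at 185 against 187, 79.8 against 81.0 to 81.2 and 157 against 160.4 to 161. In mouse 3 Myh6 was 1451 against 13.6 to 15.2. In mouse 4 Gm12338 was 32.6 against 5.40 to 6.80. No cause was tested for any of them.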

How the results depend on the processing

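Of 245 alternatives, 200 left the value within the spread between mice or, for a count, within 1.5 times, 43 moved it and 2 reversed it. The 2 were the slow share of Myl2, 58.4% with the longest transcript as length and 61.9% without length. Of the 245, 156 left out 1 mouse, and 154 of these counted as unmoved. For the share of a list or pair, leaving out 1 of 4 mice cannot move the mean by 1 SD, the limit used. Those alternatives could not count as moved, so they are no evidence of stability. The liver share counted as unmoved although it fell from 0.0109% to 0.00215% without mouse 1. With the longest transcript the slow share was 31.5% for Tnnt1, 29.1% for Tnnc1, 40.02% for Tpm3, 28.1% for Atp2a2 and 37.6% for Myh7. Without length it was 31.3% for Tnni1, 31.1% for Tnnt1, 29.7% for Tnnc1, 35.4% for Tpm3, 38.97% for Atp2a2, 33.2% for Casq2, 76.4% for Myoz2 and 38.1% for Myh7. Per exon length the shares were 3.68% for slow, 7.25% for fast and 14.9% for other sarcomere genes, 2.91% for calcium handling, 5.16% for the oxygen store and energy buffer, 2.79% for glycolysis, 1.95% for pyruvate and TCA cycle, 8.42% for the respiratory chain, 3.78% for fatty acid use, 0.247% for the structural and non-coding RNA list (Rn45s has no length, and the protein-coding Lars2 is in the list) and 21.7% for the 10 highest genes. The median spread was 9.01% as a plain CV, 8.29% from log2(value + 1), and 4.42% to 5.31% with 1 mouse left out. Each median with 1 mouse left out was below the 5.70% of all 4 mice. Genes of large spread numbered 11 with a value of at least 10 in every mouse, 1595 with no filter, and 188 at 30%. With 1 mouse left out they numbered 27 to 37. No paired analysis was possible because a single group is described without a test. With 4 mice an SD is imprecise, and 3 reads correspond to values of 0.187 to 0.225, below which a level cannot be told from 0.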
